A study of Saccharomyces cerevisiae with 13 samples.

Results

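The 34 genes of iron uptake and iron homeostasis described here were listed by name for their known place in the pathway, with no peak value in the rule, although earlier results of these data were known when the list was made. All 34 were found among the 6431 nuclear genes of the RefSeq R64 table of Saccharomyces cerevisiae (build sacCer3). In Break-Seq, broken DNA ends are labelled with biotin inside agarose plugs, and fragments carrying the label are purified and sequenced, so that a called peak marks a region rich in DNA ends. The strain WFA72 carries an intact MEC1 (called WT here) and the strain WFA73 the mec1-1 allele (called mec1 here). Mec1 is the checkpoint kinase that responds to stalled replication forks. Cells grown in YPD were arrested in G1 by alpha factor at 3 µM, released into 200 mM hydroxyurea (HU) for 1 h, and in some experiments then freed of HU and followed for 1 h (recovery, R).

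There were 13 peak lists. The HU library was called alone in 3 mec1 lists (Exp A, Exp B and the Control experiment) and in 2 WT lists (Exp C and the Control experiment). The recovery library was called with its own experiment's HU library as the reference in 2 mec1 lists (Exp A and Exp B) and 1 WT list (Exp C). For both strains the Control experiment added a list of HU called over mock labelling (no biotin added) and a list of HU called over G1. The titles of these last samples name the mock and G1 material and their descriptions name the comparison, which is the reading used here, so results named over mock or over G1 rest on it. One more list held peaks of Exp A DNA from mec1 cells in G1 after digestion by BamHI, a restriction enzyme. A list is a set of regions with a score, so read depth is unknown, and a longer list can come from a deeper library as well as from more breaks. The lists held between 43 and 1296 peaks. A gene counted as overlapped when a peak shared 1 bp or more with its body.

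Budding yeast takes up iron by several routes. Metalloreductases of the FRE family free iron from chelates at the cell surface, the Fet3 oxidase with the Ftr1 permease brings it in at high affinity, and the ARN transporters import iron still bound to siderophores, chelators made by other microbes. When iron is short, the transcription factors Aft1 and Aft2 switch on most of these genes, and Tis11 (also called Cth2) and Cth1 help degrade mRNAs of proteins that use iron. HU inhibits ribonucleotide reductase, an enzyme whose small subunit holds an iron centre.

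In mec1 cells in HU, peaks lay over 3 (Exp A), 4 (Exp B) and 7 (Control) of the 34 iron genes. In WT cells in HU they lay over none of them in either list. Of all nuclear genes, peaks overlapped 5.38% in mec1 Exp A, 6.02% in mec1 Exp B and 10.9% in mec1 Control, against 5.72% in WT Exp C and 1.48% in WT Control. The iron genes thus stood above the background of their own list in each mec1 list, at 8.82%, 11.8% and 20.6%, and below it in each WT list, at 0%. A count of 0 among 34 genes allows a share of up to 8.82% (3 counts of 34, for counting error only), which lies above both WT backgrounds. A shortage of peaks at iron genes relative to other genes was therefore not detectable in WT with so few genes. The mec1 counts of 3, 4 and 7 are small too, and 3 of the 7 in Control lay under 1 peak. Whether they exceeded the background of their own list was not tested.

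The mean number of iron genes overlapped was 4.67 ± 2.08 (SD, n = 3 lists) in mec1 HU and 0 in both WT HU lists, a difference of 4.67. The groups did not overlap. FIT1, ARN2 and ENB1, whose recurrence was known beforehand, were among the genes counted in each mec1 list. By an exact permutation test over lists (two-sided) p was 0.2, the lowest that this design allows, and the adjusted p over 4 such tests was also 0.2. The share of iron genes minus the share of all nuclear genes was 6.31 ± 3.18 percentage points in mec1 HU (n = 3) and -3.60 ± 3.00 in WT HU (n = 2), with the same exact permutation p of 0.2. Strain and experiment cannot be told apart in Exp A, Exp B and Exp C. Within the Control experiment, which held both strains, the counts were 7 and 0, beside lists of 265 and 43 peaks.

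The size of this difference rested on how much of a gene had to be covered. When 50% of the gene body had to lie under 1 peak, the difference in mean number was 2.00 (exact permutation p = 0.6). When each peak was cut to 200 bp around its midpoint it was 0.33 (exact permutation p = 1.0), and the difference in share over background turned to -0.25 points.

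**Figure D1:**
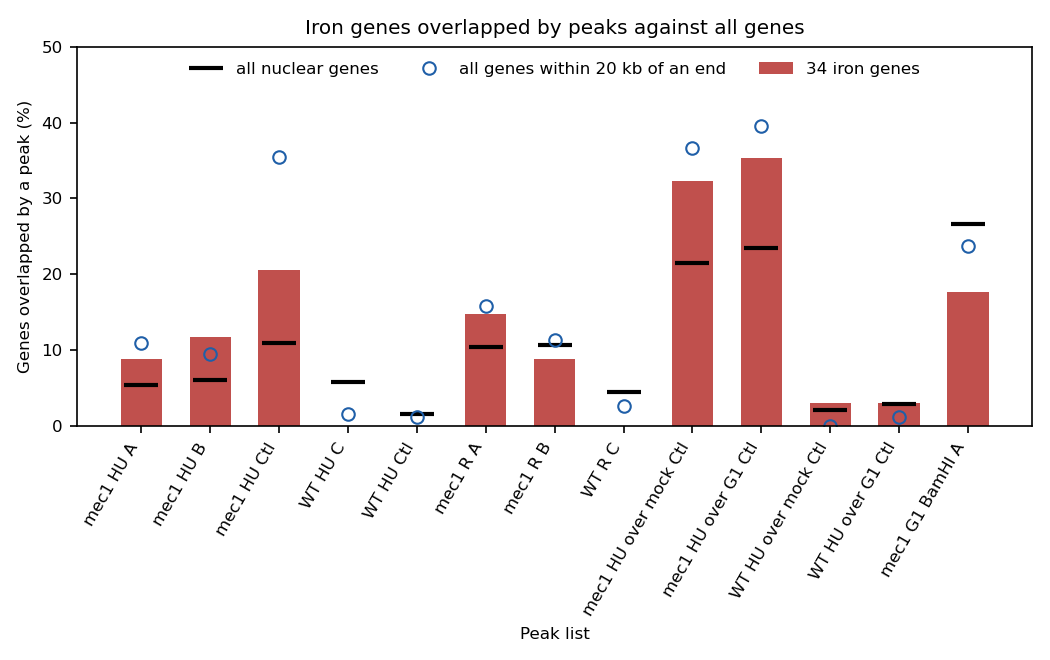
Percent of genes overlapped by a peak in each of the 13 lists (Ctl, Control experiment). Bars are the 34 iron genes, black dashes all 6431 nuclear genes and open circles all genes within 20 kb of a chromosome end. The bars of the mec1 HU lists reach 8.82, 11.8 and 20.6% and lie above the dashes, and the 3 WT lists of HU alone and of recovery have no bar.

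The iron genes had a median length of 1623 bp against 1131 bp for all nuclear genes. Among all genes at least as long as the iron median, peaks overlapped 5.95% in mec1 Exp A, 5.55% in Exp B and 12.5% in Control. Counted in bases, 3.32% of iron gene sequence lay under peaks in mec1 Exp A against 3.55% of all gene sequence, 5.88 against 3.79% in Exp B and 12.1 against 7.16% in Control. By bases, then, Exp A showed no excess at iron genes.

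By role, most iron genes touched by a peak in mec1 HU were siderophore genes. Of 4 siderophore transporter genes 2 were overlapped in each list, ARN2 and ENB1 each time. Of 3 cell wall retention genes 1, 1 and 3 were overlapped (Exp A, Exp B and Control). These lists overlapped 5.38, 6.02 and 10.9% of all nuclear genes, and with so few genes per role an excess was not tested. Only 1 of the 14 overlaps with iron genes in mec1 HU had the peak midpoint inside the iron gene. None of the 6 genes of the oxidase and permease complexes and their copper loading was overlapped in any HU or recovery list of either strain called without mock or G1. Each of these lists overlapped 1.48 to 10.9% of all nuclear genes. Of all nuclear genes, 76.0% were in none of the 5 mec1 lists and 89.3% in none of the 3 WT lists. An absence among 6 genes therefore does not set these genes apart. FIT1, ARN2 and ENB1 were overlapped in all 3 lists. They make up 8.82% of the iron genes, while 111 of all nuclear genes (1.73%) recurred in all 3. No iron gene was overlapped in exactly 2 lists, and MRS3, TIS11, FRE3, FIT2 and FIT3 were each overlapped in 1. The recurrence of these 3 genes was known before the present lists of members and comparisons were drawn up, so it is given as a description.

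ARN2 (YHL047C, chromosome VIII 8351 to 10213, 8350 bp from the chromosome end) encodes a transporter for the siderophore triacetylfusarinine C. In mec1 HU its peak spanned 6383 to 9248 in Exp A, 6494 to 9372 in Exp B and 3548 to 9629 in Control, covering 48.2, 54.9 and 68.7% of the gene. The scores of these peaks stood at the 87.7, 88.1 and 67.9 percentile of their own lists, in that order. The stretch common to all 3 peaks was 2755 bp long (6494 to 9248), and 1857 bp of it lay outside ARN2. It reached over the adjoining COS8, a gene of the subtelomeric COS family that is transcribed toward ARN2. The labels do not state how reads from repeated subtelomeric sequence were placed. The nearest WT HU peaks were 52484 bp (Exp C) and 283462 bp (Control) away.

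ENB1 (YOL158C, chromosome XV 19491 to 21311) encodes the transporter for the bacterial siderophore enterobactin. Its mec1 HU peaks spanned 16018 to 19810 in Exp A, 17985 to 19882 in Exp B and 17792 to 20058 in Control, and covered 17.6, 21.5 and 31.2% of the gene. Their scores stood at the 83.3, 62.9 and 85.3 percentile of their lists. All of the common stretch of 1826 bp beyond ENB1, 1506 bp, held no other annotated gene, although the Exp A and Control peaks also reached CSS3. The nearest WT HU peaks were 12719 bp (Exp C) and 86643 bp (Control) away.

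FIT1 (YDR534C, chromosome IV 1503314 to 1504900) encodes a mannoprotein of the cell wall that helps retain siderophore iron. Peaks spanned 1501555 to 1503766 in Exp A, 1501480 to 1503913 in Exp B and 1501995 to 1503959 in Control, and covered 28.5, 37.8 and 40.7% of the gene. Their score percentiles were 26.8, 51.0 and 75.5, so the peak was among the lower ones in Exp A, where its score of 94.33 was below 100. The common stretch of 1772 bp ran from FIT1 into HSP31, a stress gene downstream of it. The nearest WT HU peaks lay 223997 bp (Exp C) and 944944 bp (Control) away.

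At all 3 genes the peaks covered the end of transcription and not its start, with strand taken from the systematic gene names. In the 3 mec1 HU lists, 10 overlaps with iron genes reached only 1 end of the gene, and all 10 reached the 3′ end. They came from 4 genes, FIT1, ARN2, ENB1 and FIT3, so they are not 10 separate sites. Of all protein-coding genes reached at 1 end only, 66.5% were reached at the 3′ end in mec1 Exp A, 60.8% in Exp B and 58.5% in Control, against 45.2% in WT Exp C and 47.1% in WT Control. In the Control experiment these shares were 48.6 and 51.3% in mec1 HU over mock and over G1, and 44.4 and 51.5% in WT. In recovery they were 53.9 and 60.2% in mec1 Exp A and Exp B, and 42.1% in WT Exp C. The midpoints of the recurring peaks lay past the 3′ end, by 337 to 654 bp at FIT1, 418 to 1763 bp at ARN2 and 558 to 1577 bp at ENB1. None of these 9 midpoints was inside the iron gene itself.

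**Figure D2:**
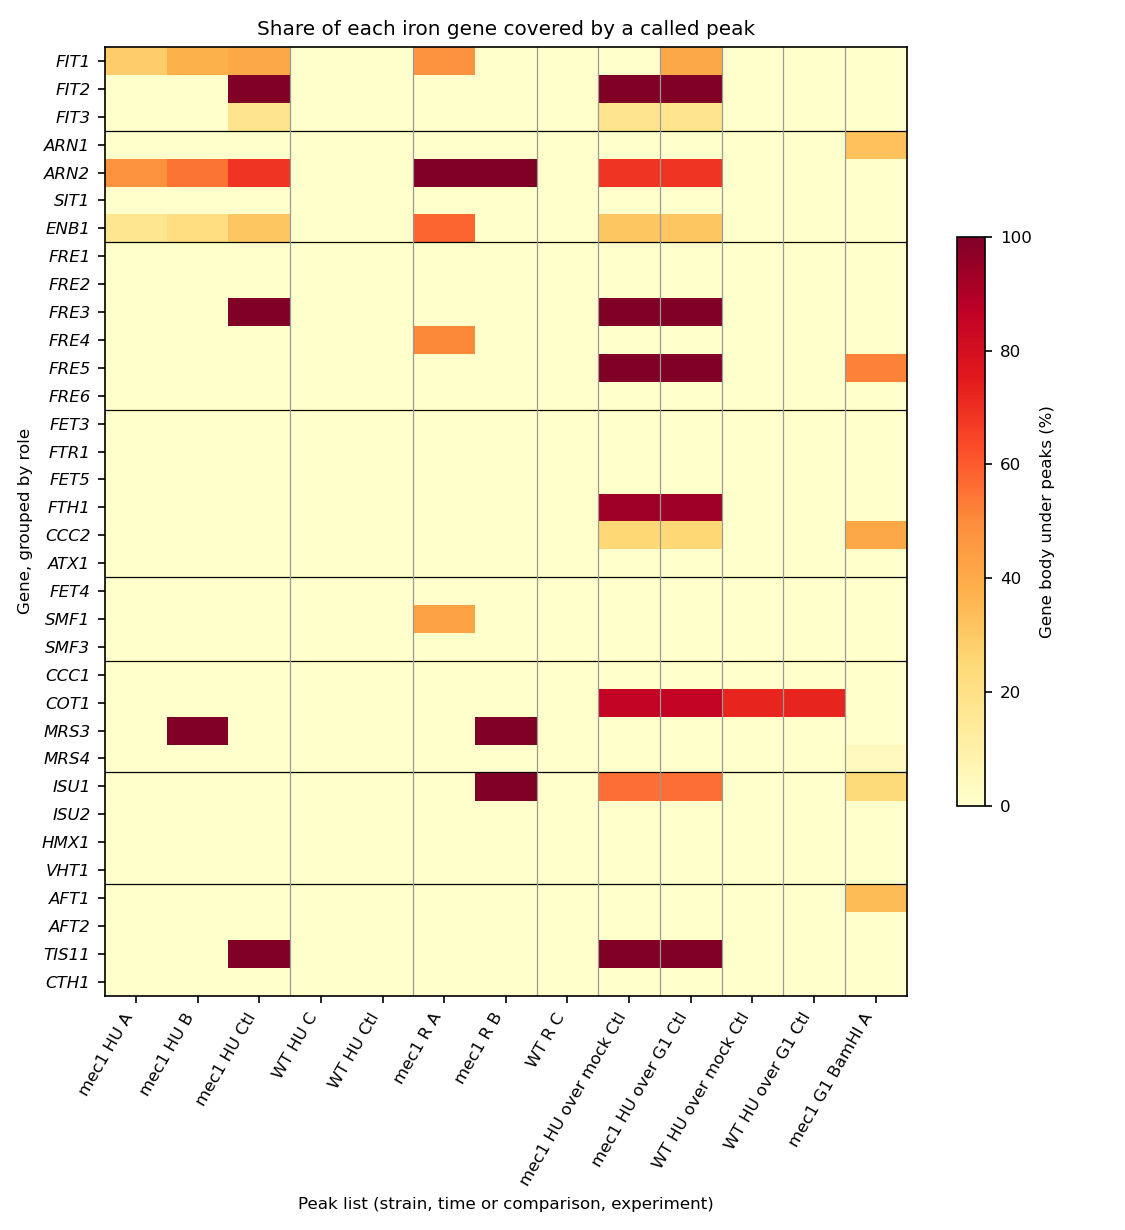
Share of each iron gene's body under called peaks (colour, 0 to 100%) in each list, with genes as rows grouped by role and lists as columns (Ctl, Control experiment). FIT1, ARN2 and ENB1 are coloured in all 3 mec1 HU lists, and COT1 is the only gene coloured in a WT list.

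The members near chromosome ends were ARN1, ARN2, ENB1, FRE2 and FET4, each within 20 kb of the furthest annotated or called position of its chromosome. ARN1 at 19087 bp and ENB1 at 19490 bp were the furthest from the end among these, and FIT1 at 26811 bp and FRE5 at 27215 bp were the next beyond the limit. Of the 5 end members, 2 were overlapped in each mec1 HU list, ARN2 and ENB1 each time. This 40.0% compares with 10.9% of all genes in the outer 20 kb in Exp A, 9.43% in Exp B and 35.5% in Control. In the Control list the end members were thus near the background of chromosome ends, which itself was high.

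Interior members numbered 29, and 1, 2 and 5 of them were overlapped in Exp A, Exp B and Control. These shares of 3.45, 6.90 and 17.2% compare with 5.14, 5.87 and 9.80% of all interior genes. Exp A lay below its interior background, Exp B near it and Control above it. Without that list the mean difference from WT at interior members was 1.50 in place of 2.67. The exact permutation tests gave p = 0.2 for end and for interior members alike, the smallest value possible. The end counts came from ARN2 and ENB1 alone. Their recurrence was known beforehand, so the end test gives no independent evidence.

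The interior excess of the Control list came largely from 1 peak. It spanned 1055070 to 1060552 on chromosome XV, with a score at the 94.0 percentile of the list, and overlapped 3 members that lie side by side. These were FRE3 (a reductase for siderophore iron) and FIT2, both covered entirely, and FIT3, covered over 112 bp (18.2%). FIT2 and FIT3 encode cell wall proteins like FIT1. FIT3, FIT2 and FRE3 lie 29808, 30871 and 33183 bp from the chromosome end, so they are interior by the 20 kb limit but not far inside it. Counted as distinct peaks, the mec1 HU lists held 3, 4 and 5 peaks over iron genes. In Exp A and Exp B the peaks nearest to FRE3 were 70374 and 271095 bp away.

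Single lists added 2 further genes. TIS11, the mRNA decay factor gene (chromosome XII 415801 to 416658), lay entirely under a peak of 6984 bp in mec1 Control that also overlapped SLX4, RKM5 and NHA1. MRS3, a mitochondrial iron carrier gene (chromosome X 160619 to 161563), lay entirely under a peak in mec1 Exp B (157929 to 163674, score percentile 33.1) and held its midpoint. That peak also overlapped LCB3, DPI8 and YJL132W. Some genes narrowly missed a peak in mec1 Control: FRE4 by 548 bp, SMF1 by 742 bp, ISU1 by 978 bp and FRE5 by 1012 bp. The median distance from an iron gene to its nearest peak was 25360.5 bp in mec1 Exp A, 17650 bp in Exp B and 9377.5 bp in Control, against 27695, 24790 and 14205 bp for all nuclear genes. In WT Exp C it was 47745 bp against 38579 bp. In WT Control it was 152921 bp against 92992 bp, for the 29 iron genes and 5549 genes with a peak on their chromosome. Other lists did not keep this split by strain. In mec1 the distance was 22579 against 15598 bp in recovery Exp B and 8904 against 8399 bp over mock. In WT recovery Exp C it was 51831.5 against 53572 bp.

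**Figure D3:**
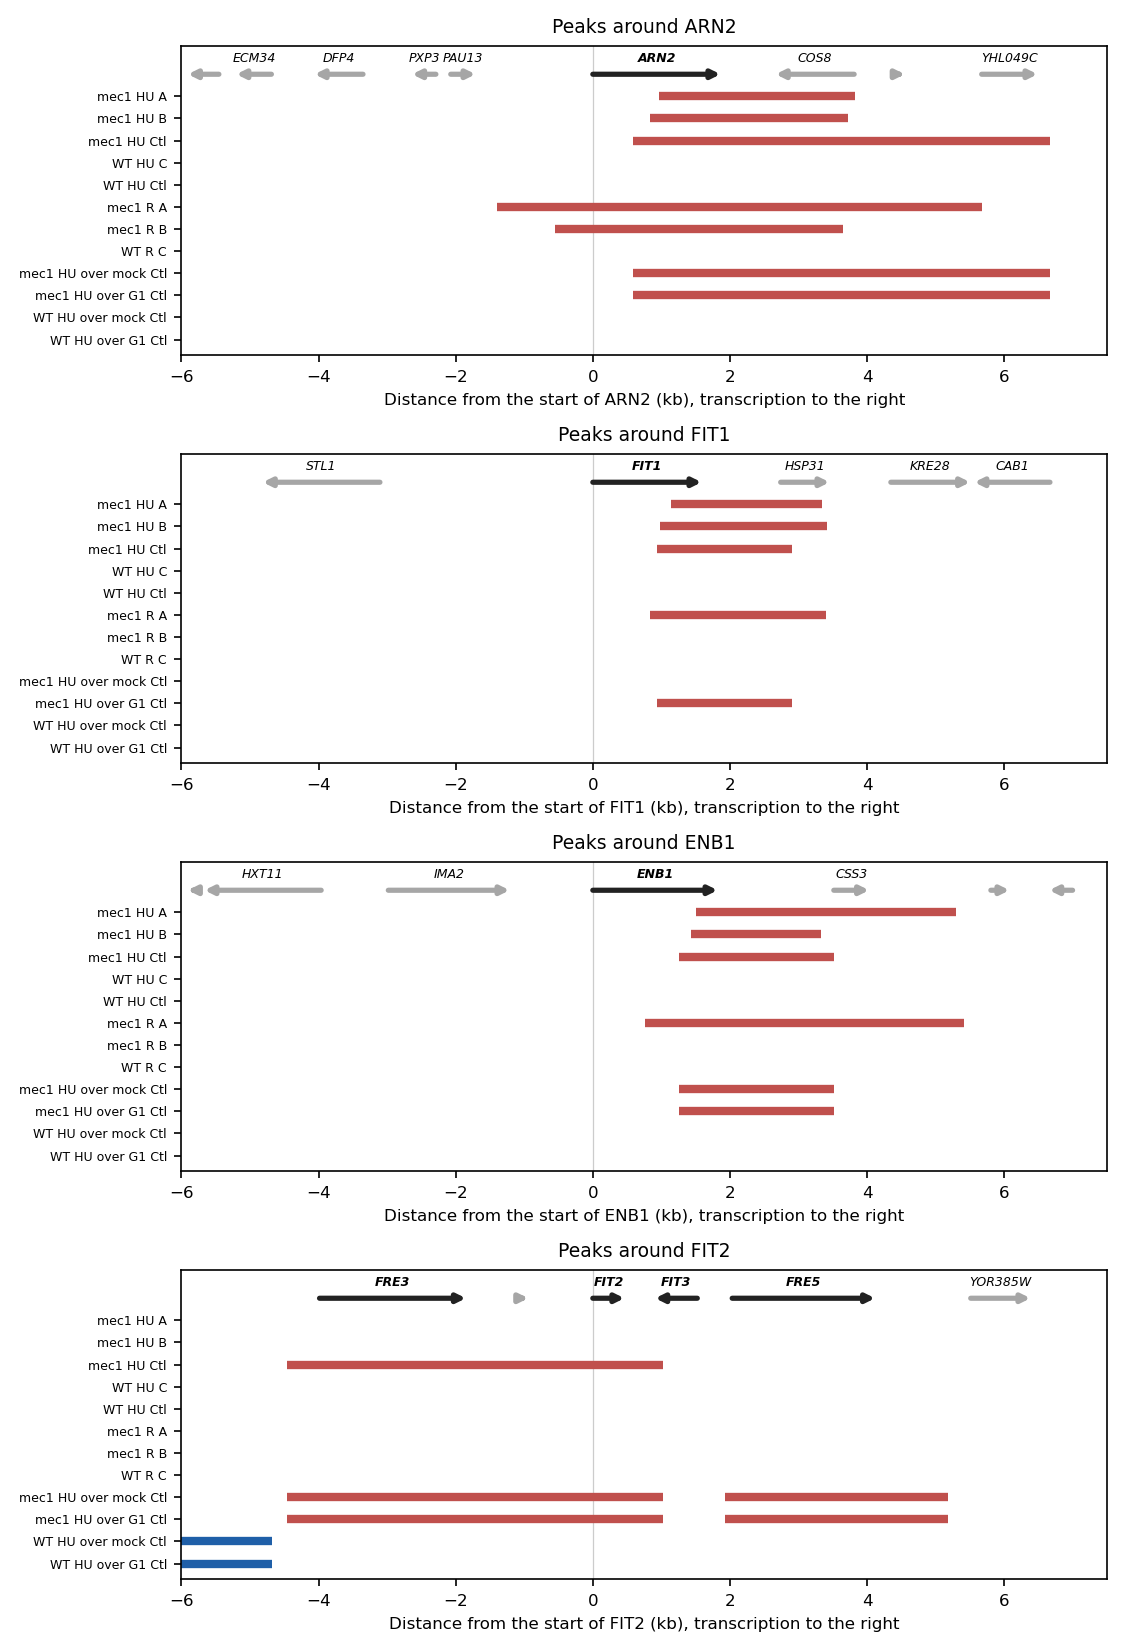
Peaks of 12 lists around ARN2, FIT1, ENB1 and FIT2, as distance in kb from the start of that gene with its transcription running to the right (Ctl, Control experiment). Black arrows are iron genes, grey arrows other genes, red bars mec1 peaks and blue bars WT peaks. At ARN2, FIT1 and ENB1 the mec1 HU bars that touch the gene begin inside it and run past its 3′ end. Other mec1 HU peaks further downstream of ENB1 and ARN2 lie outside the range drawn. The peak over FRE3, FIT2 and FIT3 is present in lists of the Control experiment only.

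Recovery lists were called against HU, so a peak marks a place with more signal at 1 h of recovery than in HU. Iron genes were overlapped 5 times in mec1 Exp A and 3 times in mec1 Exp B (mean 4), and not at all in WT Exp C. All nuclear genes were overlapped at 10.3, 10.6 and 4.42%, and the iron gene shares were 14.7, 8.82 and 0%. The mec1 recovery counts lay above background in 1 list and below it in the other, and the difference from the 1 WT list was not tested.

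Of the iron genes called in mec1 HU, all 3 in Exp A (FIT1, ARN2 and ENB1) and 2 of 4 in Exp B (ARN2 and MRS3) were called again in recovery. Of all genes overlapped in HU, 62.7% were called again in Exp A and 41.6% in Exp B. The numbers are too small to set these shares apart from those of all genes. At ARN2 the recovery peak was 7072 bp wide in Exp A and 4203 bp in Exp B, against 2866 and 2879 bp in HU. At MRS3 in Exp B it was 5640 bp against 5746 bp in HU. Recovery peaks were wider across the whole lists, with a median of 4156.5 bp in Exp A and 4339 bp in Exp B against 3230 and 3202 bp in HU. ARN2 was covered entirely at recovery in both experiments. It was 1 of 56 nuclear genes overlapped in all 5 mec1 lists of HU and recovery.

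The experiments differed at FIT1 and ENB1. Both were called in recovery of Exp A, with 47.8 and 58.1% of the gene covered, and in Exp B the nearest recovery peaks were 42061 and 8523 bp away. The Exp A peak over ENB1 had a score of 60.1, at the 2.53 percentile of its list. MRS3 was called at HU and at recovery in Exp B and at neither time in Exp A, where the nearest peaks were 26764 and 24856 bp away.

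Genes called at recovery only were FRE4 and SMF1 in Exp A and ISU1 in Exp B. FRE4, a reductase gene, was reached at its 5′ end by a peak of 4143 bp that covered 51.1% of it. SMF1, a gene for divalent metal uptake, was reached at its 3′ end by a peak of 10066 bp that spanned 5 other genes. ISU1 encodes the scaffold on which iron-sulphur clusters are built, and its peak had a score of 56.83 at the 2.39 percentile of its list. None of the 3 recurred in the other mec1 recovery list.

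In the Control experiment mec1 HU was also called over mock labelling and over G1, giving longer lists of 472 and 547 peaks. Of all nuclear genes, 21.4% and 23.4% were overlapped, and of the iron genes 11 (32.4%) and 12 (35.3%). All 472 intervals of the list over mock were present with the same start and end in the list over G1, and 260 of the 265 intervals of the HU library called alone were present there too. The score was also identical for 224 of these 472 intervals and for 45 of these 260. The 3 lists therefore share their HU library, most of their intervals and part of their scores, and do not count as repeats.

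ARN2, ENB1, FRE3, FIT2, FIT3 and TIS11 were overlapped over mock and over G1 as they were by HU alone. FIT1 was overlapped over G1 and not over mock, where the nearest peak was 15274 bp away. The FIT1 interval and its score over G1 (204.28) were identical to those of HU called alone. The genes added in both were FTH1, a vacuolar iron permease gene, CCC2, a copper pump gene needed to load Fet3, the reductase gene FRE5, ISU1 and COT1. At each of these added genes the interval and score were the same over mock and over G1. FTH1 lay at the edge of a peak of 13799 bp over 7 other genes and was covered over 93.4%. FRE5, beside FIT3, lay entirely under a peak of its own of 3252 bp that held no other gene.

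COT1 was the 1 iron gene overlapped in any WT list. It encodes a vacuolar zinc and cobalt transporter (YOR316C, chromosome XV 906236 to 907555). In WT, HU over mock and HU over G1 gave an identical peak at 906600 to 907875, with a score of 59.77 in both, over 72.4% of the gene and its 5′ end. In mec1 the peak over mock and over G1 was 8881 bp long (898481 to 907361), scored 3100 in both and covered 85.3% of the gene from its 3′ end. The WT peak lay at the 10.0 percentile of scores over mock and the 11.1 percentile over G1, and the mec1 peak at 98.6 and 96.7. The called intervals of the strains thus entered COT1 from opposite sides and overlapped inside it. No list of an HU library called alone overlapped COT1, the nearest peak being 4669 bp away in mec1 Exp A. In the Control experiment, the source of the COT1 peaks, the nearest peaks of HU alone were 71698 bp (mec1) and 443494 bp (WT) away. In the WT lists 2.05% (over mock) and 2.8% (over G1) of all nuclear genes were overlapped, against 2.94% of iron genes in both, which is 1 gene of 34. The next nearest iron gene to a WT peak of these lists was FRE3, at 696 bp.

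Of the 12 lists of HU or recovery, none had a peak over 19 of 34 iron genes (55.9%, against 63.2% of all nuclear genes). Among them were FET3 and FTR1 of high-affinity uptake and FET5, which encodes the vacuolar oxidase that works with Fth1. FET4 of low-affinity uptake, the surface reductase genes FRE1 and FRE2 and the vacuolar reductase gene FRE6 were in none. The siderophore transporter genes SIT1 (ferrioxamine B) and ARN1 (ferrichrome) were in none either, unlike ARN2 and ENB1. The others were the regulators AFT1, AFT2 and CTH1, the vacuolar iron importer gene CCC1, the mitochondrial carrier gene MRS4, the vacuolar transporter gene SMF3, ISU2, the copper chaperone gene ATX1, the haem oxygenase gene HMX1 and the biotin transporter gene VHT1.

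The BamHI list shows where ends made at restriction sites were called in the same kind of library. It overlapped 6 of 34 iron genes (17.6%), AFT1, ARN1, MRS4, CCC2, FRE5 and ISU1, against 26.7% of all nuclear genes. Of the 6, ISU1 was also overlapped in mec1 recovery, and ISU1, CCC2 and FRE5 in mec1 HU over mock and over G1. The bodies of FIT1, ARN2 and ENB1 held no BamHI peak, but a BamHI peak lay under the stretch common to the 3 mec1 HU lists at each of them. It spanned 1501643 to 1502856 at FIT1, 5889 to 7255 at ARN2 and 17108 to 18345 at ENB1, and shared 862, 762 and 361 bp with the common stretch. Of all mec1 HU peaks, 42.0% in Exp A, 52.3% in Exp B and 43.0% in Control shared at least 1 bp with a BamHI peak, and of WT HU peaks 55.3% in Exp C and 32.6% in Control. What part BamHI sites have in the HU peaks was not tested.

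Other genes of iron metabolism were taken from a list of iron-sulphur, haem and iron regulation genes, of which 27 of 28 were in the gene table. In mec1 HU they were overlapped 3, 3 and 2 times (11.1, 11.1 and 7.41%, in Exp A, Exp B and Control), against the backgrounds of 5.38, 6.02 and 10.9% given above. In mec1 recovery they were overlapped 3 and 4 times (11.1 and 14.8%, in Exp A and Exp B), near the 10.3 and 10.6% of all genes. In mec1 HU over mock and over G1 it was 8 times in both (29.6%, against 21.4 and 23.4% of all genes). None was overlapped in the 5 WT lists. Each of those lists overlapped 1.48 to 5.72% of all genes. Of all genes, 89.3% were overlapped in none of the 3 WT lists of HU alone and recovery. Whether the absence among 27 genes differs from that was not tested. BIO2, which encodes the iron-sulphur enzyme biotin synthase (YGR286C, chromosome VII 1063813 to 1064940, 25994 bp from the end), was overlapped in all 5 mec1 lists of HU and recovery. Its peaks covered between 95.5 and 100% of the gene, and their score percentiles in HU were 15.9, 92.1 and 99.2. They also reached beyond the gene, from 1061883 to 1065501 in mec1 HU Exp A and from 1060934 to 1067564 in mec1 recovery Exp B. ISA2, a gene for maturation of iron-sulphur proteins, was overlapped in mec1 HU Exp A and Exp B, and ECM4, a glutathione transferase gene, in mec1 HU Exp B and mec1 recovery Exp A. Of 8 copper genes, none was overlapped in HU alone in either strain, CTR3 (copper transport) in mec1 recovery Exp A and CUP2 (a copper-responsive transcription factor) in mec1 recovery Exp B. Of all genes, 84.6% were overlapped in none of the 3 mec1 lists of HU alone and 93.3% in none of the 2 WT lists. An absence among 8 genes therefore does not set the copper genes apart. In mec1 HU over mock and over G1, 3 of the 8 (37.5%) were overlapped, the transporter genes CTR1 and CTR2 and the reductase gene FRE7. Of all genes 21.4 and 23.4% were overlapped there, and 8 genes are too few to set these shares apart.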

How the data were processed

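The deposited files are peak lists of 13 Break-Seq samples on sacCer3. Among the tools in the submitters' processing notes are Bowtie2, BWA 0.6.2 and, for 7 samples, MACS 1.4.1. The Control samples' notes name BWA, and per the labels their peaks also came from MACS, without a version. Settings, filters and the placement of repeated reads are unstated in these sources. The score is the authors' deposited value for each peak, on a scale they do not state. Each list's lowest score lay between 50.21 and 51.32. Scores were used for ranks and a minimum inside 1 list, never across lists. Depth is unknown, as the files hold no read totals.

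With Python 3.11.15, 1 was added to deposited starts, and peaks were joined to genes of 16 nuclear chromosomes. Overlap code was tested on drawn peaks with known answers. Chromosome extents were the furthest gene or peak end. Group tests were exact permutations over lists with Benjamini-Hochberg adjustment. Labels name experiments, not cultures, so p-values measure spread between lists. Members, lists and comparisons were chosen with earlier results of these data known. Values by list are given for members in 2 or more mec1 HU lists, or any WT HU or R list, and other members by counts or single values. Members with peaks only in mec1 Control, over mock or over G1 were named after their values were seen. A planned promoter motif count was not made.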

Additional observations from a re-analysis of the deposited data

How the results depend on the processing

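Of 71 values recomputed under the alternatives, 1 changed sign, and sizes moved most with the rule for overlap. Most of the 71 were counts, or differences from WT HU counts of 0, which could not change sign. The 1 that did was a difference in share over background. With 50% of the gene under 1 peak, the mec1 minus WT HU difference at end members was 0.67 and at interior members 1.33 (2 and 2.67 as reported), and the number of iron genes in all mec1 HU lists was 0 in place of 3. With peaks cut to 200 bp, it was also 0, the difference in iron genes was 0.33 in place of 4.67, at interior members also 0.33, the difference in share over background between mec1 and WT HU was -0.25 points in place of 9.91, the difference at end members was 0, the mean per mec1 recovery list was 1.00 in place of 4, and the count over mock and over G1 in mec1 was 1 in place of 11. The midpoints of these peaks lie mostly outside the genes. With a score of at least 100, the WT count over mock and over G1 was 0 in place of 1. Leaving out each list in turn, the mec1 minus WT HU difference ranged from 3.50 to 5.50 iron genes and from 7.79 to 12.0 points of share. With an end of 30 kb the differences at end and interior members were 3.33 (exact permutation p = 0.2) and 1.33 (exact permutation p = 0.6). Chosen after seeing the data, distinct peaks gave a difference of 4 with an exact permutation p of 0.2. No paired analysis was possible because recovery lists were called against HU of the same experiment, and the strains shared only the Control experiment. List length, which depth can set, limits every absence.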
